A study of Homo sapiens with 8 samples.

Results

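The loci of 9 genes of the BCL2 family were examined for accessible chromatin in 2 oral squamous carcinoma cell lines. They were the survival genes BCL2, BCL2L1 and MCL1, the pore-forming genes BAX and BAK1, and the BH3-only genes BCL2L11, PMAIP1, BID and BBC3. The members are all peaks that overlap a fixed hg19 window around each gene, 30 to 220 kb wide and 620 kb in total. The windows were chr18:60780001-61000000 (BCL2), chr20:30240001-30325000 (BCL2L1), chr1:150530001-150570000 (MCL1), chr19:49445001-49475000 (BAX), chr6:33530001-33560000 (BAK1), chr2:111865001-111940000 (BCL2L11), chr18:57550001-57590000 (PMAIP1), chr22:18205001-18270000 (BID) and chr19:47715001-47750000 (BBC3). Peaks of the 8 libraries were merged wherever they shared at least 1 bp, which gave 47 regions in these windows out of 80588 on chromosomes 1 to 22 and X. Chromatin was profiled by ATAC-seq, which uses a transposase to tag open DNA, in the established lines KOSC-2, labelled radiosensitive, and HSC-3, labelled radioresistant. Each line was given 0 or 8 Gy of radiation and frozen after 24 hours, with 2 libraries per line and dose. All cells were grown in DMEM with fetal bovine serum, and 1 line stands for each class of radiosensitivity, so a difference between lines cannot be told apart from a difference in radiosensitivity. Whether paired libraries of 1 group are independent cultures is not stated, and the p-values given here cover library-to-library spread, which may be technical. Gene positions of hg19 were not used here, so squamous markers were not examined, no region was assigned to a promoter, exon or intron, and regions are named by the window they lie in.

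Proteins of the BCL2 family decide whether the outer mitochondrial membrane is opened, the step that releases cytochrome c and starts the caspases. BAX and BAK1 form the pore. BCL2, BCL-XL (from BCL2L1) and MCL1 hold them in check, and the BH3-only proteins bind the survival proteins or activate the pore formers. PMAIP1 (NOXA), BBC3 (PUMA) and BAX are known targets of p53, the transcription factor that is activated by DNA damage. This makes the family a textbook route from irradiation to cell death.

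Upstream sequence of the members was taken from RefSeq (GRCh38.p14), in which 8 of the 9 genes had an entry, all but MCL1. The 250 bases before the first listed start of each gene were used. These positions belong to another assembly than the peaks and were not set against them. Of 27305 genes in the table, the median had 11 CpG in these 250 bases. PMAIP1 had 36, BCL2L11 34, BID 30, BAX 25, BCL2 24, BCL2L1 17, BAK1 5 and BBC3 4. The sequences of 5 members are printed to show this spread, 5′ to 3′, with every CpG in capitals.
PMAIP1, chr18:59899746-59899995, plus strand: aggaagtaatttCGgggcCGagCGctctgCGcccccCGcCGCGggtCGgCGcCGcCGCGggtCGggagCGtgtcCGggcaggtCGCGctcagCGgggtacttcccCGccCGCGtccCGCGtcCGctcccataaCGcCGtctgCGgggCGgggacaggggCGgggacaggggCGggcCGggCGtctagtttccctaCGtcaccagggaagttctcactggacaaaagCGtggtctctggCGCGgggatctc
BCL2, chr18:63319770-63320019, minus strand: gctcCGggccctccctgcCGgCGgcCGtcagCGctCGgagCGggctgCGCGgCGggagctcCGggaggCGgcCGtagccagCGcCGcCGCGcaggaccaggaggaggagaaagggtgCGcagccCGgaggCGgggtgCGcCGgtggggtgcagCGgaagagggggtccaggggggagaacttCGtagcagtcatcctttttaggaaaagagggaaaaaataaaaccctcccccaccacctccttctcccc
BAX, chr19:48954625-48954874, plus strand: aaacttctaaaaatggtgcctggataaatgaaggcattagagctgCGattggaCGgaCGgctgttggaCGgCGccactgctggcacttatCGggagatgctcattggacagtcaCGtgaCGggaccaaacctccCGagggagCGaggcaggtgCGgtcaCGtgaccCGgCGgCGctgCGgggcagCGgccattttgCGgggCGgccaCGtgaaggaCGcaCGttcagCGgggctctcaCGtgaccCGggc
BAK1, chr6:33580277-33580526, minus strand: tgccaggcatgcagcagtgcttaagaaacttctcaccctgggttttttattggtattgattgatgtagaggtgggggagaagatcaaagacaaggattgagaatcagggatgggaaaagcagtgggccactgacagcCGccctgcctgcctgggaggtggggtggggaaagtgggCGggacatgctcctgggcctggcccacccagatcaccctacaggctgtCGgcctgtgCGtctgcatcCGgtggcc
BBC3, chr19:47232668-47232917, minus strand: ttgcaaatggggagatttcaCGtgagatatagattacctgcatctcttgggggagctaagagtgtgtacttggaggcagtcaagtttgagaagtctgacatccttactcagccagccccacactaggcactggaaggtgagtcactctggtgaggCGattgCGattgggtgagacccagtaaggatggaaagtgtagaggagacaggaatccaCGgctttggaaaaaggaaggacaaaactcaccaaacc
PMAIP1 is thus CpG-rich throughout, whereas BAK1 and BBC3 carry few CpG, below the median gene. Motifs were searched on both strands. The p53 element (a repeated decamer with a spacer of 0 to 13 bases) matched in none of the 8 upstream sequences and in 0.0293% of all genes. No mismatch was allowed and only these 250 bases were searched. A pattern this rare would hardly match among 8 genes, so its absence says little about their p53 sites. The letters CACGTG, an E-box chosen after the sequences were seen, occurred 4 times upstream of BAX, which 0.0183% of genes equal or exceed, and are shown in capitals.
BAX, chr19:48954625-48954874, plus strand: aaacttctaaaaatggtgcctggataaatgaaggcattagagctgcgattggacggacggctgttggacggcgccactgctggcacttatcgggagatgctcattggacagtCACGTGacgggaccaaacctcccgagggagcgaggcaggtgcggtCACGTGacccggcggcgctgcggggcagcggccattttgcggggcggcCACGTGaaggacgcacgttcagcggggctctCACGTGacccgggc
BBC3 also held 1 CACGTG, present in 6.49% of genes, and was the only one of the 8 with TGANTCA, the letters of an AP-1 site, present in 6.60% of genes and shown in capitals.
BBC3, chr19:47232764-47232790, minus strand: cactggaaggTGAGTCActctggtgag
A match of this kind describes the letters, not a bound site.

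The lists held 22504 to 51693 peaks on these chromosomes, of which 15 to 33 fell in the windows. As a share this was 6.81 ± 0.552 peaks per 10000 in KOSC-2 and 6.84 ± 0.422 in HSC-3 (SD, n = 4 each), with overlap between the lines. The HSC-3 lists of 0 Gy replicate 2 (23490 peaks) and 8 Gy replicate 1 (22504 peaks) were short, against 41926 and 43089 in the other HSC-3 libraries and 38234 to 51693 in KOSC-2. Library background, the measure of depth that the lists allow, ran from 20.2 to 64.85 reads per 10 kb. The smallest summit pileup called anywhere in a list, the number of reads stacked at a peak's highest point, was 5 to 9 reads. Within the windows, weak peaks could hold more. In HSC-3 8 Gy replicate 1, peaks of 34 reads (BID) and 28 reads (BBC3) stood at percentiles 3.02 and 4.55 of the list. A region reported here as not called may thus be open with more than 5 to 9 reads.

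Of the 47 regions, 10 (21.3%) were called in all 8 libraries, beside 15.9% of all regions. These 10 lay in 6 of the 9 windows: 4 in that of BCL2L1, 2 in that of MCL1, and 1 each in those of BAK1, BCL2L11, PMAIP1 and BID. The windows of BCL2, BAX and BBC3 held none. A further 10 regions (21.3%) were called in 1 library, beside 31.9% of all regions. The regions called in all 8 had a median percentile of 75.3 within their lists, beside 76.1 for all regions of that kind. The percentile is the rank of a peak by −log10 p within its own list, where 100 is the strongest, and it places a peak in its list without comparing heights between libraries. A mean percentile is taken over only the libraries that call the region, and the strongest region of a window has the highest such mean.

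**Figure D1:**
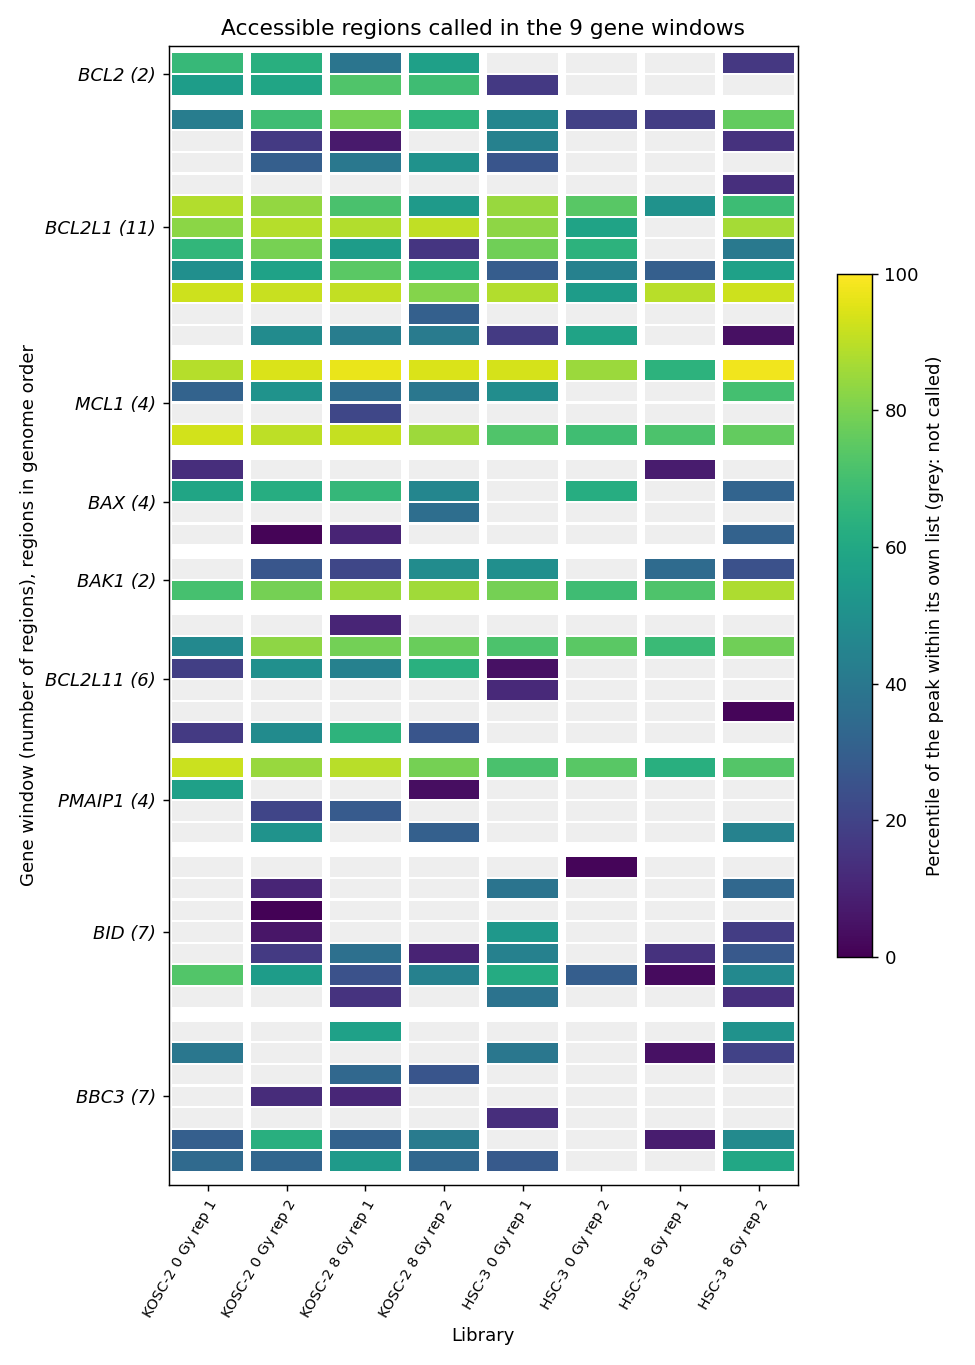
Calls of the 47 regions (rows, grouped by gene window in genome order) in the 8 libraries (columns). Colour is the percentile of the peak within its own list and grey marks a region that was not called. Bands across all 8 columns stand in the windows of BCL2L1, MCL1, BAK1, BCL2L11, PMAIP1 and BID, and the BCL2 rows are filled in the 4 KOSC-2 columns and nearly empty in HSC-3.

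Among the survival genes, MCL1 encodes a short-lived protein on which many carcinoma cells depend. Its window held the region with the highest mean percentile of the 47, 89.4. That region lay 3.44 kb inside the left border, and windows narrowed by 5 kb left it out. This region, chr1:150533437-150534862, stood at percentiles 88.9, 94.4, 96.8 and 94.3 in KOSC-2 (here and below 0 Gy replicates 1 and 2, then 8 Gy replicates 1 and 2). In HSC-3, in the same order, it stood at 93.7, 85.1, 64.2 and 97.7. Apart from the short 8 Gy list of HSC-3, it stood at 85.1 or above in every list. The other region of this window called in all 8, chr1:150551551-150552523, lay at percentiles 85.2 to 93.3 in KOSC-2 and 69.2 to 76.2 in HSC-3, with 24 to 72 reads at the summit. Peaks covered 2507, 2434, 2779 and 2203 bp of the 40 kb window in KOSC-2 and 2338, 1303, 1050 and 2552 bp in HSC-3. The low values were those of the 2 short HSC-3 lists, and the lines overlapped.

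BCL2L1 had the largest number of regions, 11 in 85 kb. Peaks covered 6.74% of its window in KOSC-2 and 4.31% in HSC-3 on average, beside 6.20% and 4.53% for MCL1. Its strongest region, chr20:30310560-30311951, was called in all 8 libraries with 30 to 108 reads at the summit. It stood at percentiles 92.4, 91.6, 90.9 and 81.4 in KOSC-2 and 88.7, 54.97, 89.2 and 92.3 in HSC-3, lowest in the short 0 Gy list. Next came chr20:30292229-30292894, at a mean percentile of 82.5, which was called in every library except the short HSC-3 8 Gy replicate 1. Of the 11 regions, 6 were called in at least 7 libraries. The others were chr20:30249323-30250348, chr20:30286909-30287432, chr20:30298429-30298957 and chr20:30300411-30301495. Covered length was 4659, 6410, 6159 and 5672 bp in KOSC-2 and 4902, 2925, 1699 and 5118 bp in HSC-3. The lines overlapped, since the lowest KOSC-2 library was below both long HSC-3 lists.

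BCL2 is the founding survival gene of the family. Its 220 kb window held only 2 regions, each called in 4 of 4 KOSC-2 libraries and 1 of 4 HSC-3 libraries. The region chr18:60986807-60988053 stood at percentiles 55.2, 58.9, 72.6 and 68.9 in KOSC-2, with 28, 27, 43 and 31 reads at the summit. In HSC-3 it was called in 0 Gy replicate 1 alone, at percentile 16.7 and with 12 reads. The region chr18:60828859-60829411 stood at percentiles 67.2, 63.1, 38.8 and 56.4 in KOSC-2, and in HSC-3 was called in 8 Gy replicate 2 alone, at percentile 16.4 and with 9 reads. Both HSC-3 calls were thus weak peaks of the long lists, and the 2 short lists had no peak anywhere in the window. Covered length was 1345, 1280, 1751 and 1154 bp in KOSC-2 and 541, 0, 0 and 341 bp in HSC-3, without overlap. The means were 1382 ± 258 bp and 220.5 ± 267 bp (SD, n = 4 each), a difference of 1162 bp. This had the smallest p that 4 against 4 libraries allows (exact two-sided permutation test, p = 0.0286). After Benjamini-Hochberg adjustment over 34897 tiles of 50 kb and the 9 windows it was 0.21, so it did not pass at 0.05. No tile or window had a lower adjusted value, so none could have passed. With every list cut to its 22504 strongest peaks the difference was 1256 bp, and all 4 HSC-3 libraries had 0 bp covered against 1154 to 1345 bp in KOSC-2. Earlier results of these data set apart KOSC-2 0 Gy replicate 1 and the 2 short HSC-3 lists as low in enrichment. Without these libraries the difference was 954 bp. The lines could not overlap there, since leaving out libraries cannot make separate ranges meet.

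**Figure D2:**
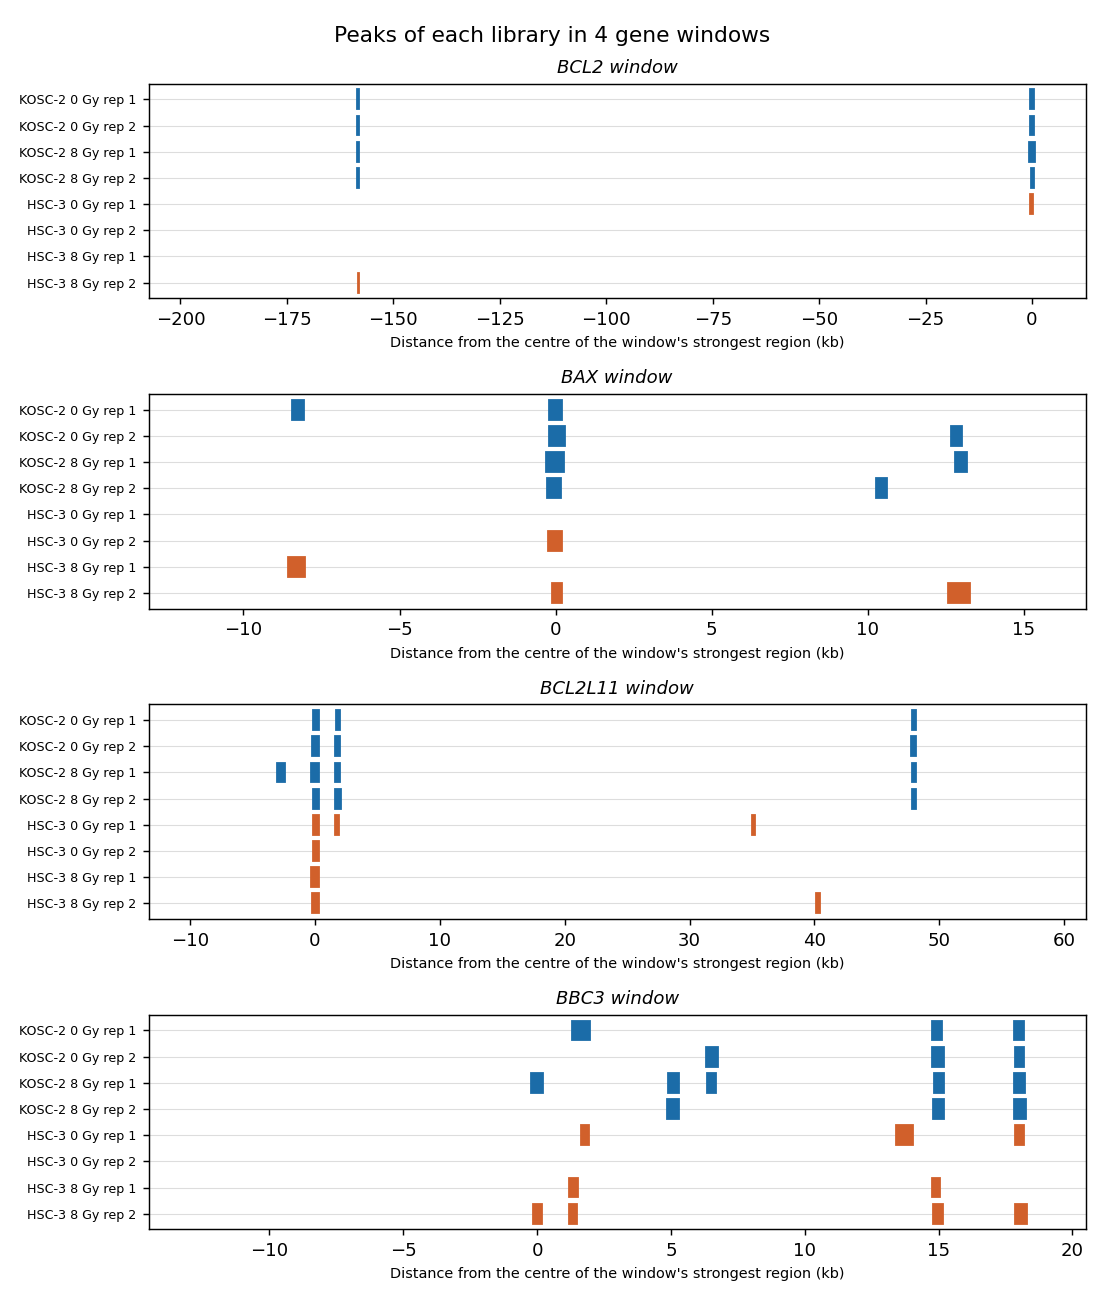
Peaks of each library (boxes, drawn with a thin outline that widens them slightly) in the windows of BCL2, BAX, BCL2L11 and BBC3, against the distance in kb from the centre of the strongest region of the window. KOSC-2 is blue and HSC-3 orange. Both BCL2 regions are present in all 4 KOSC-2 rows and in 1 HSC-3 row each, and the BBC3 rows differ from library to library.

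For the pore-forming genes, the BAK1 window held a region called throughout, 1.06 kb inside its right border. Windows narrowed by 5 kb left it out, and the BAK1 window then held no region called in all 8 libraries. This region, chr6:33557891-33558936, was called in all 8 libraries at percentiles 69.1 to 87.7 and with 30 to 72 reads at the summit. A weaker region, chr6:33547750-33548298, was called in 6 libraries at percentiles 21.2 to 49.3. It was not called in KOSC-2 0 Gy replicate 1 or in HSC-3 0 Gy replicate 2. Covered length was 908, 1403, 1338 and 1414 bp in KOSC-2 and 1315, 435, 771 and 1416 bp in HSC-3, with overlap.

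BAX, the other pore former and a p53 target, had 4 regions in 30 kb, none in all 8 libraries. The strongest, chr19:49457735-49458324, was called in 4 of 4 KOSC-2 libraries at percentiles 58.9, 62.3, 66.5 and 45.7. In HSC-3 it was called at percentile 62.5 in 0 Gy replicate 2 and at 31.9 in 8 Gy replicate 2. The HSC-3 0 Gy replicate 1 library, a long list, had no peak in the window at all, while the short list of the same dose had 1. Covered length was 790, 840, 955 and 758 bp in KOSC-2 and 0, 456, 552 and 1020 bp in HSC-3. The KOSC-2 values lay within the HSC-3 range (exact two-sided permutation test, p = 0.171, adjusted over tiles 0.46).

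Among the BH3-only genes, PMAIP1 had the strongest region, chr18:57566321-57567617. It was called in all 8 libraries, at percentiles 91.95, 84.6, 89.4 and 79.3 in KOSC-2 and 71.4, 73.9, 63.0 and 73.2 in HSC-3. The other 3 regions of this window were called in 2 or 3 libraries each, and only chr18:57585651-57586078 was called in HSC-3, in 8 Gy replicate 2. Covered length was 1369, 1831, 1361 and 1299 bp in KOSC-2 and 850, 467, 787 and 1096 bp in HSC-3, without overlap (difference 665 bp, exact two-sided permutation p = 0.0286, adjusted over tiles 0.21). Relative to all bases covered by the same list, PMAIP1 had 45.3 to 73.3 ppm in KOSC-2 and 38.2 to 69.3 in HSC-3, with overlap.

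BCL2L11, which encodes BIM, an activator of BAX and BAK1, had a region called in all 8 libraries, chr2:111877953-111878635, at percentiles 47.2 to 82.9. A region 1.83 kb away (centre to centre), chr2:111879885-111880357, was called in 4 of 4 KOSC-2 libraries at percentiles 18.4, 49.6, 43.7 and 63.5 and in HSC-3 only in 0 Gy replicate 1, at 4.35. The window also held the only KOSC-2-only region of the 47, present in every KOSC-2 list and absent from every HSC-3 list. That is 2.13% of the members, beside 2.07% of all regions. This region, chr2:111926061-111926465, lay 47.97 kb from the strongest one. It had percentiles of 16.97, 48.0, 64.6 and 26.5 and 16, 19, 26 and 15 reads at the summit. With lists of equal length it was called in 1 KOSC-2 library. No region was HSC-3-only, beside 0.3% of all regions. Covered length in the window was 1077, 1310, 2098 and 1196 bp in KOSC-2 and 1099, 443, 584 and 882 bp in HSC-3, with the long HSC-3 0 Gy list just above the lowest KOSC-2 library (exact two-sided permutation p = 0.0571, adjusted over tiles 0.292).

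BID, whose protein is cut by caspases to link death receptors to mitochondria, was the only window with a higher mean covered length in HSC-3. Of its 7 regions 1 was called in all 8 libraries. This region, chr22:18264062-18264898, stood at percentiles 72.7, 54.99, 25.3 and 43.7 in KOSC-2 and 60.9, 29.4, 3.02 and 47.0 in HSC-3. Covered length was 700, 2181, 1901 and 1514 bp in KOSC-2 and 2578, 1002, 982 and 2854 bp in HSC-3. The 2 long HSC-3 lists were above every KOSC-2 library and the 2 short ones above only the lowest. The difference of -280 bp was within the spread (exact two-sided permutation p = 0.629). As a share of each list, BID had 32.6 to 87.3 ppm in KOSC-2 and 86.5 to 127 in HSC-3, where the values overlapped by 1 library of each line (exact two-sided permutation p = 0.0571, adjusted over tiles 0.357).

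BBC3, a p53 target whose product binds all the survival proteins, had no region called in all 8 libraries. Its 7 regions were called in 1 to 6 libraries. The strongest by mean percentile of the calling libraries, chr19:47729299-47729719, was called in only 1 library of each line. These were KOSC-2 8 Gy replicate 1 at percentile 56.8 and HSC-3 8 Gy replicate 2 at 50.7. The most often called were chr19:47744260-47744729 and chr19:47747324-47747827, each in 4 of 4 KOSC-2 libraries and 2 of 4 HSC-3 libraries. Covered length was 1425, 1225, 1970 and 1280 bp in KOSC-2 and 1271, 0, 622 and 1466 bp in HSC-3, with overlap.

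**Figure D3:**
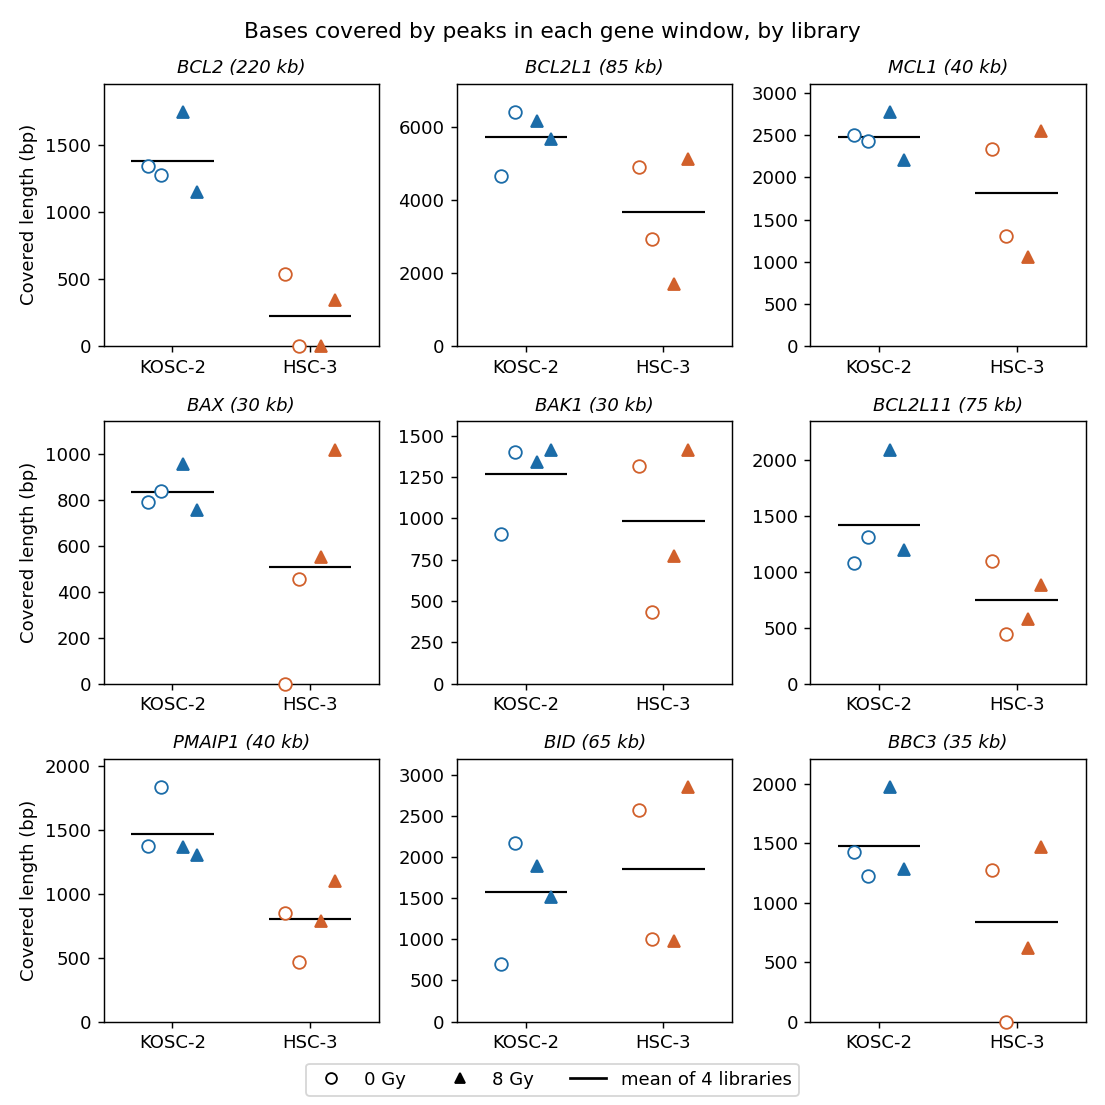
Bases covered by peaks in each gene window (vertical axes, bp, from 0, with a scale for each panel) in KOSC-2 (blue) and HSC-3 (orange). Open circles are 0 Gy libraries, filled triangles 8 Gy libraries and lines the mean of 4 libraries. BCL2 and PMAIP1 are the 2 windows in which the lines do not overlap.

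Across the set, mean covered length was higher in KOSC-2 in 8 of 9 windows, as it was in 75.7% of all tiles. The median difference was 665 bp over the windows and 158.5 bp over tiles, which are 50 kb wide where the windows are 30 to 220 kb. In 2 windows, BCL2 and PMAIP1, every KOSC-2 library exceeded every HSC-3 library, as in 12.8% of tiles. Both lie on chromosome 18, at chr18:60780001-61000000 and chr18:57550001-57590000. Whether they are 2 independent observations was not tested. No window showed the reverse, as in 0.785% of tiles. No window passed the adjusted test. The smallest p of the exact permutation test became 0.21 after adjustment, so no window could have passed. An unadjusted exact p under 0.05 was found in 2 windows, beside 13.6% of tiles. Because KOSC-2 lists covered more bases in all, the same values were also taken as parts of all bases covered by each list (ppm). On that scale KOSC-2 was higher in 5 of 9 windows and in 52.5% of tiles. The others were higher on average in HSC-3. KOSC-2 minus HSC-3 was -43.6 ppm in BID, -7.75 in MCL1, -6.81 in BAK1 and -0.404 in BAX. BCL2 remained the only window without overlap, at 48.9 to 62.7 ppm in KOSC-2 and 0 to 24.4 in HSC-3 (exact two-sided permutation p = 0.0286, adjusted over tiles 0.256). On that scale 5.79% of tiles were without overlap in the direction of KOSC-2.

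**Figure D4:**
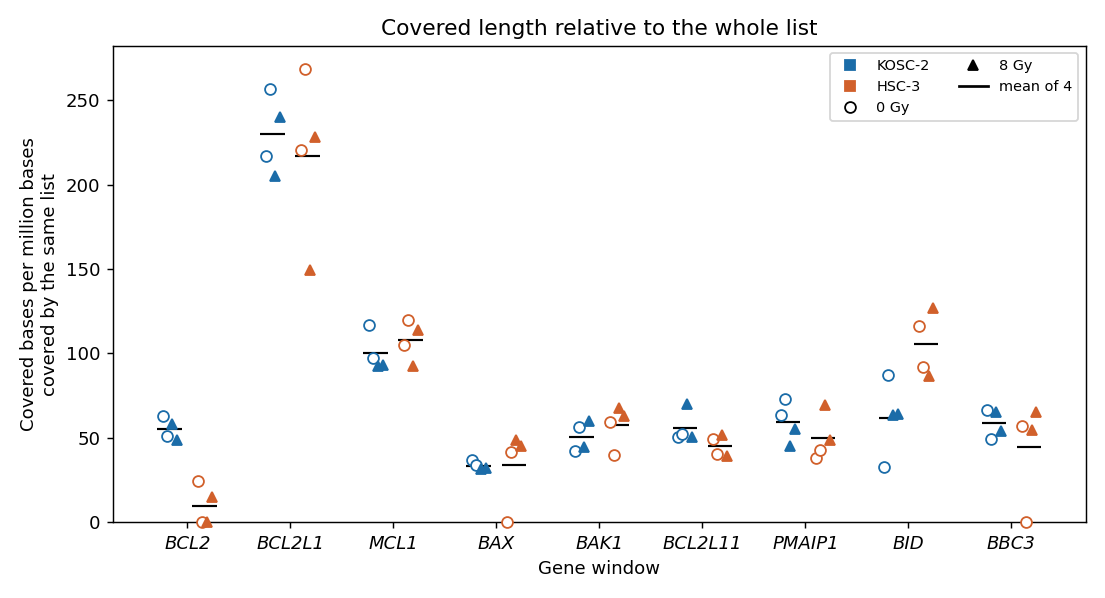
Covered bases as a share of all bases covered by the same list (vertical axis, ppm, from 0) in the 9 windows. KOSC-2 libraries are blue and HSC-3 libraries orange, open circles are 0 Gy, filled triangles 8 Gy and lines the mean of 4. BCL2 separates the lines, at 48.9 to 62.7 against 0 to 24.4, and PMAIP1 does not.

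The second comparison was between 8 and 0 Gy, and asked whether the windows of these death regulators opened or closed by 24 hours after irradiation. Of the 47 regions, 1 was called in both irradiated KOSC-2 libraries and neither unirradiated one (gained), beside 3.51% of all regions, and 1 was gained in HSC-3, beside 0.68%. None was lost in KOSC-2 (0.87% of all regions) or in HSC-3 (0.957%). Both gained regions lay in the BBC3 window, at different places. The region gained in KOSC-2, chr19:47734373-47734813, stood at percentiles 33.5 and 26.4 in the 8 Gy lists with 38 and 30 reads at the summit, and was called in no HSC-3 library. The region gained in HSC-3, chr19:47744260-47744729, stood at percentiles 7.86 and 47.6 with 23 and 28 reads, and was called in all 4 KOSC-2 libraries at both doses. No test of a single region within a line was made, with 2 libraries per dose. With lists of equal length neither region was gained.

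No window passed the test of covered length between doses, which averages over the lines. Averaged over the lines, 8 minus 0 Gy ranged from -62.0 bp in BCL2L1 to 354 bp in BBC3, with exact two-sided permutation p of 0.167 to 1 (labels exchanged within each line, smallest possible 0.0556), and all adjusted values were 1. The BBC3 value was 36.5 bp without HSC-3 0 Gy replicate 2, the short list with 0 bp there, and 672 bp without HSC-3 0 Gy replicate 1. In BBC3 the difference was 300 bp in KOSC-2, where the doses overlapped, and 408.5 bp in HSC-3, where they overlapped as well. In BAX it was 41.5 bp in KOSC-2, with overlap, and 558 bp in HSC-3, where both 8 Gy libraries (552 and 1020 bp) exceeded both 0 Gy libraries (0 and 456 bp), as in 4.18% of tiles. The BAX peak of the HSC-3 8 Gy replicate 1 library lay in chr19:49449459-49450010, a region not called in the other HSC-3 libraries. In PMAIP1 both irradiated KOSC-2 libraries (1361 and 1299 bp) were below both unirradiated ones (1369 and 1831 bp), as in 5.38% of tiles, while the HSC-3 values of 850 and 467 bp at 0 Gy and 787 and 1096 bp at 8 Gy overlapped. The nearest KOSC-2 values of the doses in PMAIP1 were 8 bp apart. No window was higher at 8 Gy without overlap in KOSC-2 (19.5% of tiles) or lower in HSC-3 (3.96% of tiles). BCL2 had 1312.5 bp at 0 Gy and 1452.5 bp at 8 Gy in KOSC-2, and 270.5 and 170.5 bp in HSC-3, so the excess in KOSC-2 was present at both doses (1042 and 1282 bp). The test over doses cannot reach 0.05 in this design.

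The windows were set by coordinates, so their borders matter for regions near them. Inside, the regions closest to a border were 1.06 kb (BAK1) and 1.65 kb (BID) from it. The BAK1 region was the one called in all 8 libraries, and the strongest MCL1 region lay 3.44 kb inside. With windows narrowed by 5 kb both fell outside, and 8 of 41 regions were called in all 8 libraries (15.9% of all regions). Outside, the closest were 0.109 kb and 0.379 kb beyond the PMAIP1 window, each called in 3 libraries, and 1.55 kb beyond the BCL2L1 window, called in all 8. By gene order in RefSeq, the nearest protein-coding neighbours were ZBTB9 and ITPR3 for BAK1, BCL2L13 and MICAL3 for BID, and CCBE1 and MC4R for PMAIP1. For the survival genes they were PHLPP1 and KDSR (BCL2), COX4I2 and TPX2 (BCL2L1), and ADAMTSL4 and ENSA (MCL1). The others were DHDH and FTL for BAX, ACOXL and ANAPC1 for BCL2L11, and SAE1 and CCDC9 for BBC3. Regions near a border may belong to such neighbours, which was not tested.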

How the data were processed

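ATAC-seq peak lists of 8 libraries were analysed, with groups and replicate numbers from the sample titles. The submitters' processing notes list MACS2 (2.2.6), Bowtie2 (2.3.4.2) and hg19, besides SAMtools (1.9), deepTools and FastQC (0.11.7), with no order. No source used here says whether duplicates were removed or reads shifted for the transposase. The authors deposited, per peak, an integer score, a fold enrichment (a ratio to the background of the same library), a −log10 p-value, a −log10 q-value and the summit offset. These values are relative to 1 library and only described or ranked peaks within a list. The pileup came from fold and p (Poisson tail, matched within 0.0001 for 100% of peaks).

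Covered length, the bases of a window under peaks, was compared by exact permutation (70 assignments between lines, 36 within lines between doses) and adjusted over 34897 tiles of 50 kb and the 9 windows. Alternatives covered the threshold, list length, windows, share of the list, peak number, the replicate block and each library left out. Genes and lists were chosen with earlier results of these data known. The named regions are the strongest of each window and those called in all 8 libraries, line-only, gained or lost, with others given where a count turned on them. The pathway and marker lists planned for hg19 gene positions are not analysed here. Functions were tested on simulated lists. Scripts ran in Python 3.11.15 with scipy 1.17.1, pandas 2.3.3 and numpy 2.4.6, and plots used matplotlib 3.10.9.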

Additional observations from a re-analysis of the deposited data

Results flagged for a closer look

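In 36 sets of 4 libraries (covered length and number of peaks, 9 windows, each line), 7 had a value far from the other 3. Chance gives about 1 in 20 for continuous values. That rate does not apply to 5 of the 7, which are numbers of peaks where the other 3 libraries were equal, so that a difference of 1 peak is enough. The other 2 are covered lengths. The KOSC-2 0 Gy replicate 1 library, that of the highest background, covered 908 bp of the BAK1 window against 1338 to 1414 bp in the other KOSC-2 libraries, and had 1 peak there where they had 2, and these values are not independent of each other. In the PMAIP1 window the KOSC-2 0 Gy replicate 2 library covered 1831 bp against 1299 to 1369 bp. The KOSC-2 8 Gy replicate 1 library, the longest list, had 4 peaks in the BCL2L11 window against 3, and 5 in the BBC3 window against 3. In HSC-3, the 0 Gy replicate 2 library had 1 peak in the BAK1 window against 2, and the 8 Gy replicate 2 library had 2 in the PMAIP1 window against 1.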

How the results depend on the processing

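The absence of overlap between the lines in the BCL2 window held with peaks of −log10 q of at least 5 and with equal lists. It also held with windows widened by 10 kb, as a share of the list and by number of peaks. Other runs could not have undone it. These were each library left out and, added after seeing the data, 3 libraries of low enrichment left out. Leaving out libraries cannot make separate ranges overlap. Windows narrowed by 5 kb could not change BCL2 either, as its regions lay 48.86 and 11.95 kb inside the borders. The absence of overlap in PMAIP1 did not hold with equal lists, as a share of the list or by number of peaks. Shares in parentheses are those of all tiles or all regions at the same setting. Windows without overlap numbered 1 as a share of the list, 5 without the 3 libraries (24.9% of tiles with KOSC-2 higher, 11.7% with HSC-3 higher, the latter including BID), and 2 to 4 with 1 library left out (13.2% to 23.7% with KOSC-2 higher), the 4 without KOSC-2 0 Gy replicate 1 (23.7%). KOSC-2-only regions numbered 2 at −log10 q of at least 5 (2.24%), 2 with at least 50% of a region covered (2.47%) and 1 to 3 with 1 library left out, 3 without HSC-3 0 Gy replicate 1 (3.43%) and 2 without HSC-3 8 Gy replicate 2 (3.23%). Regions called in all 8 libraries numbered 3 with at least 50% covered (8.36%). They numbered 8 with windows narrowed by 5 kb (15.9%), which left out the strongest regions of MCL1 and BAK1. In HSC-3, 0 were gained (0.65%) and 1 lost (0.978%) at −log10 q of at least 5. With equal lists 0 were gained in KOSC-2 (2.12%) or HSC-3 (1.81%), 2 were lost in KOSC-2 (1.7%) and 1 in HSC-3 (2.3%). Leaving out 1 library eases these rules for all regions. In KOSC-2, 1 to 5 were gained, 5 without 0 Gy replicate 2 (12.2%) or 8 Gy replicate 2 (14.1%) and 3 without 8 Gy replicate 1 (8.2%), and 0 to 3 lost, 3 without 0 Gy replicate 1 (6.8%) and 2 without 0 Gy replicate 2 (8.49%). In HSC-3, 1 to 7 were gained, 7 without HSC-3 8 Gy replicate 1 (11.4%), 4 without 0 Gy replicate 1 (5.66%), 2 without 8 Gy replicate 2 (3.36%) and 2 without KOSC-2 0 Gy replicate 1 (0.716%). There 0 to 5 were lost, 5 without HSC-3 0 Gy replicate 2 (10.7%), 3 without 8 Gy replicate 2 (7.13%) and 1 without 0 Gy replicate 1 (3.08%).

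Some differences changed sign. With equal lists these were KOSC-2 minus HSC-3 in BBC3 (-148 bp) and 8 minus 0 Gy in BCL2 (-56.0 bp), MCL1 (-167 bp), BAX (-66.8 bp), PMAIP1 (-268 bp) and BID (-463 bp). As a share of the list they were the line difference in MCL1 (-7.75 ppm), BAX (-0.404) and BAK1 (-6.81) and the dose difference in BCL2 (-3.98) and MCL1 (-11.8). By number of peaks the dose difference was 0.5 in BCL2L1 and -0.25 in BID. It was -2.0 bp in BCL2 with wider windows and -69.8 bp in PMAIP1 with narrower ones. With 1 library left out, BID ran from -571 to 53.3 bp between lines, and dose differences ran from -129 to 169 bp in BCL2, -917 to 793 bp in BCL2L1, -375 to 376 bp in MCL1, -0.5 to 439.5 bp in BAK1, -17.8 to 433 bp in BCL2L11, -109 to 122 bp in PMAIP1 and -270.5 to 665.5 bp in BID. Without a change of sign they ran from 183 to 417 bp in BAX and 36.5 to 672 bp in BBC3. The cause was not tested. With a replicate block, 0 windows passed for line or dose, as without it, and BCL2 had an exact permutation p of 0.125, the smallest that 16 assignments give. Libraries of the same replicate number share only a number: their deviations over tiles correlated at -0.489 to 0.199 between groups.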
